A study of Mus musculus with 6 samples.

Results

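TGF-β and BMP are secreted growth factors of one family, and 51 genes of their pathways were examined in immortalized mouse podocytes, among 57132 identifiers in the table of counts. The 51 genes were listed by symbol and by role as ligands, latent TGF-β binding proteins, receptors, secreted antagonists, SMADs, repressors and target genes. The symbols were matched to the deposited Ensembl identifiers through GENCODE M21, and the rule used no expression value. All 51 were found, and 50 passed the filter on low counts. The exception was Bmp2, a BMP ligand, which had 26, 5 and 9 counts in the WT libraries and 6, 0 and 7 in the AS libraries.

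RNA from 3 samples of WT podocytes (Col4a3+/+) and 3 samples of AS podocytes (Col4a3-/-) was sequenced, to characterize the difference between the lines. AS stands for Alport syndrome, a kidney disease of the glomerular basement membrane, and the AS line came from mice that lack Col4a3. Both lines were from 8-week-old male mice, were left untreated, and were made with the H-2Kb-tsA58 transgene, which encodes a temperature-sensitive large T antigen driven by an interferon-inducible promoter. According to the sample records, cells were kept at 33 °C with 20 U/mL interferon gamma and then differentiated at 37 °C for 14 days. The methods of the study give another medium, a shorter differentiation, a lower dose of interferon gamma, and none during differentiation. Each genotype was 1 cell line, so genotype and line cannot be told apart. The samples are numbered as sets 1 to 3 within each genotype. The sources do not say whether these sets were grown as separate cultures, and the p-values therefore measure only the spread between these samples, which may be technical.

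TGF-β is secreted in a latent form bound to latent TGF-β binding proteins, and once released it brings together TGF-β receptors of type I and type II, which phosphorylate SMAD2 and SMAD3. BMPs act through other receptors of the same type on SMAD1, SMAD5 and SMAD9, and both branches share SMAD4, while activins use the SMAD2 and SMAD3 branch. The Id genes are immediate targets of BMP, and Smad6 and Smad7 are induced by the pathways they inhibit. In the kidney, TGF-β is known for its part in glomerular scarring and podocyte loss.

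The 6 libraries held between 45417221 and 54290968 counts. Col4a3 was at 938, 1052 and 1272 CPM in the WT samples and 62.4, 61.2 and 83 CPM in the AS samples, with no AS sample near the WT range. CPM here are counts scaled to the library size after TMM adjustment. Of 15 podocyte markers, 11 reached a mean of 1 CPM. Tcf21 had no count and Nphs1 was below 1 CPM in every sample, so these defining podocyte transcripts were absent or nearly so. Wt1, a podocyte transcription factor gene, was at 25.8, 15.2 and 20.7 CPM in WT and 2.93, 1.44 and 3.14 CPM in AS samples. The summed podocyte markers were at 2647 to 3063 CPM in WT and 2251 to 2404 CPM in AS podocytes. Markers of mesangial and interstitial cells were at 249 to 277 CPM in WT and 126 to 127 CPM in AS samples, nearly all of it Pdgfrb. Tubular markers, mainly Lrp2 and Aqp1, were at 373 to 419 and 275 to 387 CPM, and parietal epithelial markers at 478 to 500.1 and 390.3 to 414 CPM. Endothelial markers summed to at most 1.35 CPM and leukocyte markers to at most 3.14 CPM in any sample. The part of these markers in the differences below was not tested.

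Of the 50 genes tested, 27 passed edgeR's quasi-likelihood test for AS against WT podocytes (adjusted p under 0.05), with 10 higher and 17 lower in AS podocytes. That was 54.0% of them, where 40.1% of all genes tested passed, 20.4% higher and 19.6% lower. Of the called genes, 8 changed by more than 2-fold, 3 higher and 5 lower, where 11.2% of all genes tested were called with such a change. In 31 genes (62.0%) the WT and AS samples did not overlap, against 52.3% of all genes. The median log2 fold change of the 50 genes was 0.03 and the median size of the change was 0.36, against 0.01 and 0.28 over all 16263 genes tested. The balance of directions depended on how chromosomes were treated. Whole chromosomes differed between the lines by a median of up to 0.31 on the log2 scale (chromosomes 8 and 10) and down to -0.21 (chromosome 6). With the median of each chromosome removed, 23 of the 50 genes were called, 12 higher and 11 lower. Without AS sample 2 the counts were 10 higher and 11 lower. In every fit that kept them, 17 of the 50 genes were called. The same count was not made over all genes tested, so no share stands beside it.

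**Figure D1:**
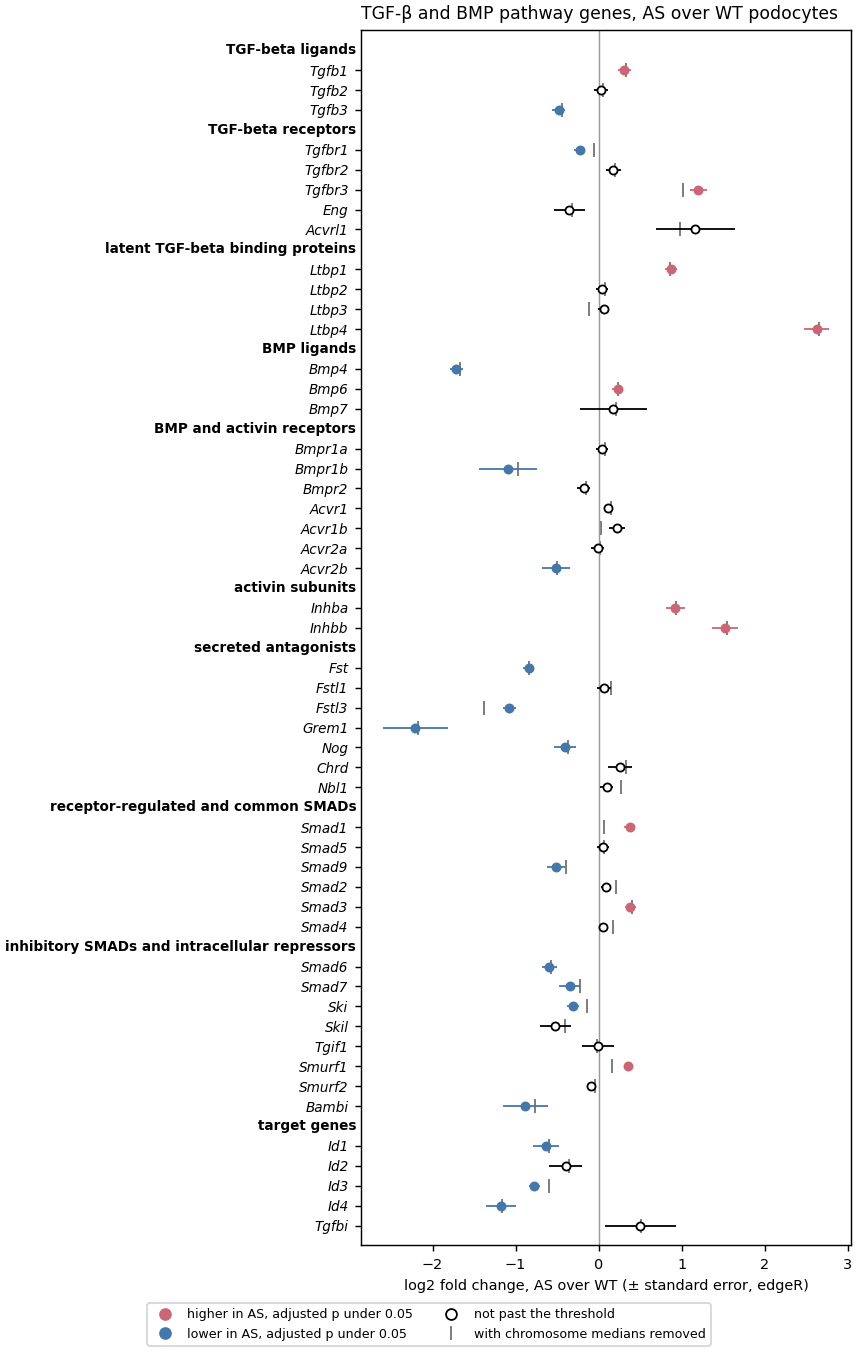
Log2 fold change of AS over WT podocytes for the 50 genes tested, grouped by role; points are estimates, horizontal bars are standard errors from edgeR, and grey ticks give the value with the median of the chromosome removed. Both activin subunits and Ltbp4 lie to the right, and Bmp4, Fst, Fstl3 and the Id genes lie to the left.

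By role, both activin subunits and 2 of 4 latent TGF-β binding proteins were higher, with no called gene of these groups lower. Of 7 antagonists, 4 were lower and none was higher, although with chromosome medians removed Nog was no longer called and Nbl1 was called as higher. Of 5 target genes, 3 were lower and none was higher. In the group of 8 inhibitory SMADs and intracellular repressors, 4 were lower and 1 was higher, of which Smad7, Ski and Bambi were not called with chromosome medians removed. Of 5 TGF-β receptors, 1 was higher and 1 lower, and of 7 BMP and activin receptors 2 were lower. Over all genes tested, 40.1% were called, 20.4% higher and 19.6% lower. Groups of so few genes are too small to be set against those shares.

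**Figure D2:**
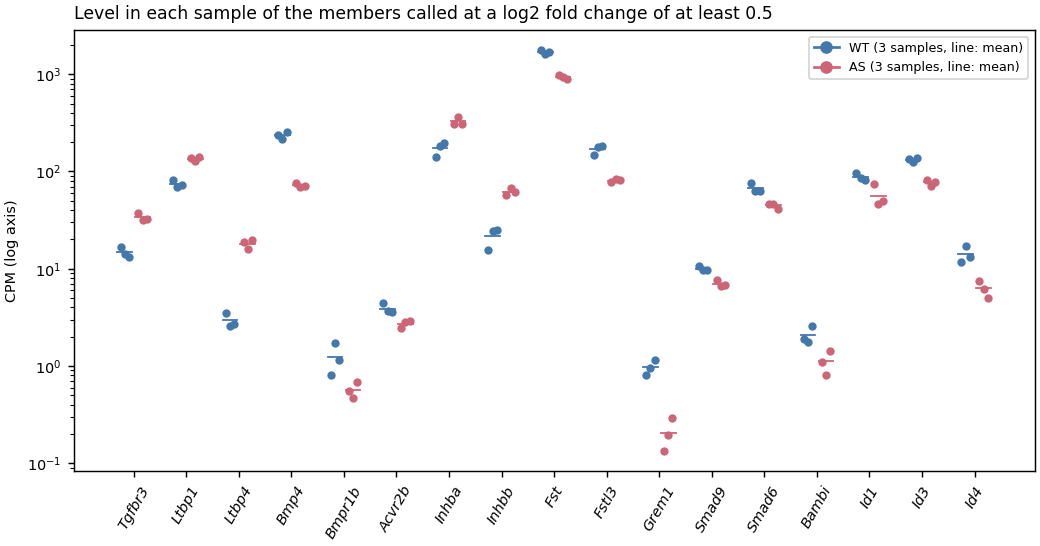
CPM on a log axis in each of the 3 WT and 3 AS samples for the 17 called genes with an absolute log2 fold change of at least 0.5; points are samples and short lines are means. The 17 genes run from Grem1, the lowest, to Fst, the highest. The points of WT and AS samples did not overlap for any of them. Choosing genes by their call and size of change in these same samples favours that, so it is not separate evidence.

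Promoter sequence was looked at because Bmp4, Id1, Id3, Id4 and Fstl3 were all lower in AS podocytes. RefSeq promoter windows (GRCm38.p6, 250 bases before to 50 bases after each start) were available for 38 of the 51 genes, with 50 windows. Genes without an entry included Id1, Fst and Tgfb3. The windows were searched on both strands for CAGAC, whose reverse complement is GTCTG and which contains the core that SMAD3 and SMAD4 bind, and for GGCGCC, a BMP SMAD site that reads the same on both strands. The motifs can share at most 1 end base. The 250 bases before the start are shown for 4 of the genes that were lower in AS podocytes, with the motifs in capitals: Bmp4 (chr14:46390670-46390919, minus strand), Id3 (chr4:136143572-136143821, plus strand), Id4 (chr13:48260866-48261115, plus strand) and Fstl3 (chr10:79777024-79777273, plus strand).
Bmp4: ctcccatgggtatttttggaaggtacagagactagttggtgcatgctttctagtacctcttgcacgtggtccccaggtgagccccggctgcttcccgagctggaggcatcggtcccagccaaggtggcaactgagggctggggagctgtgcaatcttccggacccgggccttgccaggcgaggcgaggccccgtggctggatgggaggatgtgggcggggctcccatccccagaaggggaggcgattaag
Id3: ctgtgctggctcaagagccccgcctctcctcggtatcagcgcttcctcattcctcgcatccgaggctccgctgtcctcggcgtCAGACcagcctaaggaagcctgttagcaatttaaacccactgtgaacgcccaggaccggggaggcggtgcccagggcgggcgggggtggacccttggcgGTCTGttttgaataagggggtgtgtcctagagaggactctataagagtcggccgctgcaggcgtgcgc
Id4: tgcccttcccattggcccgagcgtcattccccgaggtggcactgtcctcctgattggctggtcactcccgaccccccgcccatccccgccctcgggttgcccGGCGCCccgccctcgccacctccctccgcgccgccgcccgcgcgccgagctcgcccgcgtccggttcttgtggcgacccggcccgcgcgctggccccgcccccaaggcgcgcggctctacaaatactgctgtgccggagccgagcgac
Fstl3: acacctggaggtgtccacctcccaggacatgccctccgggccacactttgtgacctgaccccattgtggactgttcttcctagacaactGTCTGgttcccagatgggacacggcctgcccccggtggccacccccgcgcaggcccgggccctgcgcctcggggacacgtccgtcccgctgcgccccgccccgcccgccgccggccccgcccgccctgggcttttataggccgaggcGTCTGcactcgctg

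The Bmp4 window held neither motif, the Id3 and Fstl3 windows held CAGAC in 2 places each, and the Id4 window held GGCGCC once. CAGAC was in 25 of the 50 windows and in 49.6% of all 32851 windows. GGCGCC was in 34.0% of the 50 windows against 11.9% of all. The windows of these genes were also richer in G and C, with a median GC content of 65.7% against 52.7%, and the part of base composition was not tested. GGCGCC was in 16.7% of the 12 windows of genes higher in AS podocytes, 35.7% of the 14 windows of genes lower and 41.7% of the 24 windows of genes not called. CAGAC was in 4 of these 12, 7 of these 14 and 14 of these 24 windows. The windows came from 9 genes higher, 11 genes lower and 18 genes not called, so some genes are counted more than once. The GGCGCC windows of the higher group were all of Ltbp4. A match is a description of the letters and not a binding site.

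Of the 3 TGF-β ligands, Tgfb3 was the most abundant per length and was lower in AS podocytes. Its level was 789, 912 and 866 CPM in the WT samples and 609, 644 and 584 CPM in the AS samples, so the lowest WT sample lay above every AS sample. On the log2 scale the change was -0.48, with a standard error of 0.07 (adjusted p = 0.000738). Since RNA was taken from whole cultures, less transcript per cell and fewer cells with the transcript cannot be told apart. Tgfb1, the ligand most studied in fibrosis, was higher in AS podocytes, at 23, 21.7 and 19.5 CPM in WT and 26.7, 25 and 27.8 CPM in AS samples. The 2 groups did not overlap, and the log2 fold change was 0.31 (adjusted p = 0.0139). That call was lost without AS sample 3 (adjusted p = 0.0627) or WT sample 3 (adjusted p = 0.0558). Tgfb2 was at 94.7 ± 9.44 CPM (mean ± SD) in WT and 96.5 ± 7.56 CPM in AS cells (n = 3 each), a difference within the spread between samples (adjusted p = 0.83).

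Per length of transcript, Tgfb3 made up most of the ligand transcript in both lines, while its share was smaller in AS podocytes. In RPKM, the 3 ligands summed to 256, 289.8 and 275 for the WT samples and to 203, 212 and 194 for the AS samples. Tgfb3 held 92.4% ± 1.14 of that sum in WT and 89.2% ± 0.451 in AS cells (mean ± SD, n = 3 each). The share of Tgfb2 was 6.01% ± 0.942 in WT and 8.21% ± 0.434 in AS podocytes, and that of Tgfb1 1.56% ± 0.198 and 2.60% ± 0.262. For each of these 3 shares the groups did not overlap. The two-sided exact permutation p was 0.10, the smallest that 3 against 3 samples allow, and 0.154 after adjustment over the 17 shares tested.

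**Figure D3:**
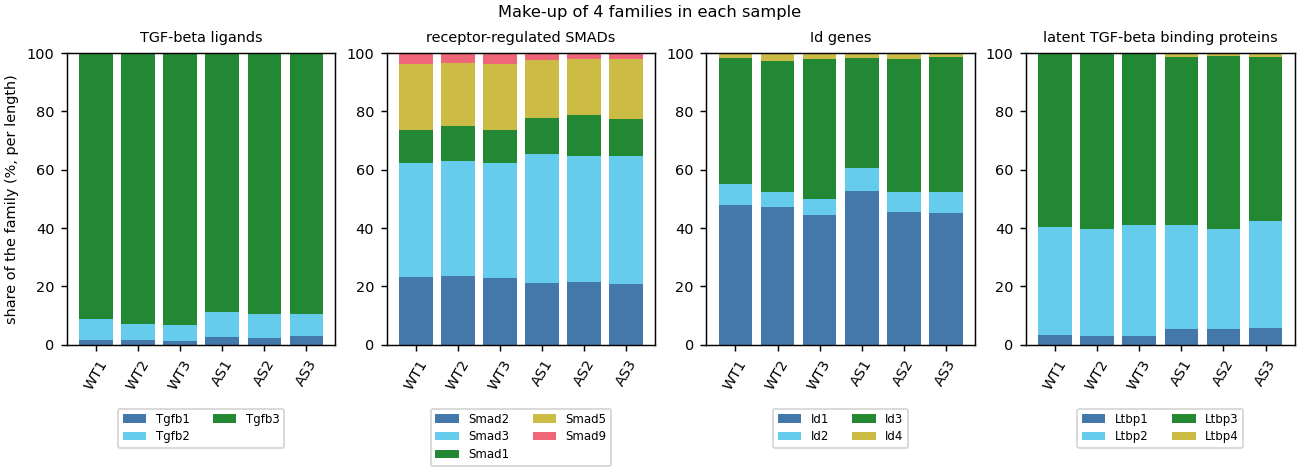
Share of each gene in the summed RPKM of 4 families (percent, stacked to 100) in each of the 6 samples. Tgfb3 fills 88.7% to 93.1% of every bar of the TGF-β ligands, and the Id family shows its largest departure in AS sample 1, where Id1 holds 52.8%.

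Among the TGF-β receptors, the co-receptor Tgfbr3 (betaglycan, which presents ligand to the signalling receptors and binds inhibin) was higher in AS podocytes. It was at 16.8, 14.2 and 13.1 CPM in the WT samples and 37.1, 31.8 and 32.6 CPM in the AS samples, and every AS sample was well above every WT sample. The AS level was 2.3 times that of WT (log2 fold change 1.20, standard error 0.10, adjusted p = 2.33e-05). Tgfbr2, the type II receptor and the most abundant of the 5 per length, was at 145, 124 and 118 CPM in WT and 155, 134 and 148 CPM in AS samples. These groups overlapped and the difference did not pass (adjusted p = 0.131), although it did without WT sample 1 (adjusted p = 0.00861). Tgfbr1, the type I receptor, was at 92.7 ± 2.52 CPM (mean ± SD) in WT and 79 ± 5.32 CPM in AS cells (n = 3 each), a log2 fold change of -0.23 (adjusted p = 0.0147). That call was lost without AS sample 2 (adjusted p = 0.0596), AS sample 3 (0.0654) or WT sample 2 (0.055), and with the chromosome median removed (0.542). Eng and Acvrl1, receptors best known from endothelial cells, were at most at 3.23 and 0.622 CPM in any sample and did not pass (adjusted p = 0.157 and 0.0782). Eng shares 61 exon bases with Fpgs on the other strand, and no source used here says whether counting used strand.

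Of the 4 genes named for latent TGF-β binding proteins, the 2 that were scarcest per length were higher in AS podocytes and the 2 most abundant were not called. Binding of TGF-β by their products was not measured. Ltbp4 was at 3.49, 2.58 and 2.73 CPM in the WT samples and 18.8, 15.8 and 19.8 CPM in the AS samples. The lowest AS sample was several times the highest WT sample, and the fold change of 6.16 was the largest increase among the 50 genes (log2 fold change 2.62, standard error 0.15, adjusted p = 1.47e-06). Ltbp1 was at 81.5, 69 and 72.2 CPM in WT and 139, 128 and 139.9 CPM in AS samples, again without overlap (log2 fold change 0.87, standard error 0.07, adjusted p = 1.8e-05). Ltbp3, the most abundant of the 4 per length, was at 1258, 1123 and 1152 CPM in WT and 1288, 1223 and 1168 CPM in AS samples. Its groups overlapped, as did those of Ltbp2, at 667 ± 48.1 and 684 ± 37.1 CPM (SD, n = 3 each), and the adjusted p was 0.561 and 0.728.

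The summed RPKM of the 4 binding proteins was 234, 206 and 216 for WT and 246, 228 and 229 for AS samples, and these ranges overlapped. Within that sum, Ltbp1 held 3.17% ± 0.0758 in WT and 5.41% ± 0.262 in AS podocytes, and Ltbp4 held 0.207% ± 0.0209 and 1.20% ± 0.132 (SD, n = 3 each). Ltbp3 held 59.4% ± 0.686 and 57.7% ± 1.43. The first 2 shares did not overlap between the lines (two-sided exact permutation p = 0.10 each), while that of Ltbp3 did (p = 0.20). Ltbp3 and Ltbp2 thus made up most of the summed transcript of these 4 genes in both lines, which does not give how much TGF-β is bound.

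Bmp4, the most abundant of the BMP ligands examined per length, was the ligand with the largest decrease among the 51 genes. It was at 239.5, 215 and 256 CPM in the WT samples and 77, 68.7 and 70.9 CPM in the AS samples. All 3 AS samples lay far below the WT samples, at 0.305 times the WT level (log2 fold change -1.71, standard error 0.08, adjusted p = 3.56e-07). The window before its start, shown above, held neither motif. Bmp6 was at 46.8 ± 0.953 CPM (mean ± SD) in WT and 54.8 ± 4.79 CPM in AS cells (n = 3 each), a log2 fold change of 0.23 (adjusted p = 0.0296). The call on Bmp6 was lost without AS sample 1 (adjusted p = 0.128), WT sample 2 (0.0664) or WT sample 3 (0.0662). Bmp6 also shares 224 exon bases with Txndc5 on the other strand, which was at a mean of 506 CPM over the 6 samples against 50.8 CPM for Bmp6, so its level is uncertain if counting did not use strand. Bmp7, known for its part in kidney development, was at 0.552, 0.641 and 0.368 CPM in WT and 0.555, 0.37 and 0.836 CPM in AS samples, a low level with overlapping groups (adjusted p = 0.762).

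The distance between Bmp4 and Bmp6 was smaller in AS than in WT podocytes. Per length, Bmp4 was at a mean of 105 RPKM and Bmp6 at 12 RPKM in WT podocytes. In AS podocytes the means were 32.1 RPKM for Bmp4 and 14.1 RPKM for Bmp6. Bmp4 was above Bmp6 in both lines on this scale. The comparison carries the uncertainty in the Bmp6 level given above, if counting did not use strand.

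Of the 7 receptors for BMPs and activins, 2 were lower in AS podocytes and none was higher, and both of those had low levels. Bmpr1a, a type I BMP receptor and the most abundant of the 7 per length, was at 201, 180.3 and 174 CPM in WT and 203, 184 and 185 CPM in AS samples. The groups overlapped and the log2 fold change was 0.04 (adjusted p = 0.707). Bmpr1b, another type I BMP receptor, was at 0.809, 1.71 and 1.15 CPM in WT and 0.555, 0.467 and 0.691 CPM in AS samples, from 174 and 87 counts in all (log2 fold change -1.09, standard error 0.35, adjusted p = 0.0317). Acvr2b, a type II receptor for activins, was at 4.46, 3.63 and 3.6 CPM in WT and 2.44, 2.82 and 2.91 CPM in AS samples (log2 fold change -0.52, standard error 0.17, adjusted p = 0.0338). The groups did not overlap for either gene, but both calls depended on single libraries. The call on Bmpr1b was lost without AS sample 1 (adjusted p = 0.0737), AS sample 2 (0.0944), WT sample 2 (0.146) or WT sample 3 (0.0627), and with the chromosome median removed (0.057). The call on Acvr2b was lost without any one of the samples except WT sample 3, with an adjusted p between 0.0523 and 0.102.

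The other 4 receptors did not pass. Bmpr2, the type II BMP receptor, was at 315 ± 15.9 CPM (mean ± SD) in WT and 278 ± 28.4 CPM in AS cells (n = 3 each), with an adjusted p of 0.103 that became 0.0457 without AS sample 1. Acvr1, a type I receptor for BMPs, had a log2 fold change of 0.12 (adjusted p = 0.123) and Acvr1b, the type I activin receptor, one of 0.22 (adjusted p = 0.0921). For Acvr1 and Acvr1b the AS samples lay above the WT samples without overlap, and Acvr1b passed without WT sample 1 (adjusted p = 0.0215). Acvr2a, the other type II activin receptor, was at 21.7 ± 1.51 and 21.5 ± 0.755 CPM, with a log2 fold change of -0.01, and shares 446 exon bases with Orc4 on the other strand.

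Both activin subunits were higher in AS podocytes. Inhba, which forms activin A, was at 140.4, 182 and 195 CPM in the WT samples and 308, 365 and 310.0 CPM in the AS samples. The 3 AS samples lay above the 3 WT samples, at 1.9 times the WT level (log2 fold change 0.92, standard error 0.12, adjusted p = 0.000278). Inhbb, which forms activin B, was at 15.6, 24.5 and 25 CPM in WT and 57.4, 67.4 and 61.7 CPM in AS samples, or 2.87 times the WT level (log2 fold change 1.52, standard error 0.16, adjusted p = 7.65e-05). WT sample 1 was the lowest of the WT samples for both subunits. Per length, Inhba was at a mean of 27 RPKM in WT and 51.2 RPKM in AS podocytes, above Inhbb at 5.1 and 14.6 RPKM.

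Follistatin and its relative, which bind and neutralize activins, moved the other way. Fst (follistatin) was at 1763, 1599 and 1689 CPM in the WT samples and 976, 936 and 901 CPM in the AS samples, with no overlap, or 0.557 times the WT level (log2 fold change -0.84, standard error 0.07, adjusted p = 1.51e-05). Fstl3 was at 148, 177 and 184 CPM in WT and 77.3, 83.4 and 81.2 CPM in AS samples, or 0.475 times the WT level (log2 fold change -1.07, standard error 0.08, adjusted p = 1.02e-05). The WT samples of Fstl3 were all above the AS samples, and with the median of chromosome 10 removed the log2 fold change was -1.38. Fstl3 shares 1157 exon bases with Prss57 on the other strand, but Prss57 was at a mean of 1.81 CPM. Fstl1, which carries the follistatin name and is the most abundant antagonist per length, was at 3416, 2818 and 2943 CPM in WT and 3332, 3157 and 3125 CPM in AS samples. Its groups overlapped (log2 fold change 0.07, adjusted p = 0.579). In mean RPKM, Fst stood at 367 against 27 for Inhba in WT podocytes and at 204 against 51.2 in AS podocytes.

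Of the BMP antagonists, Grem1 and Nog were lower in AS podocytes. Grem1 (gremlin 1, which binds BMP2 and BMP4) was at 0.809, 0.961 and 1.15 CPM in WT and 0.133, 0.195 and 0.291 CPM in AS samples, from 139 and 32 counts in all. The highest AS sample was below the lowest WT sample (log2 fold change -2.21, standard error 0.39, adjusted p = 0.00168), and the size of so low a change is imprecise. Nog (noggin) was at 9.42 ± 0.557 CPM (mean ± SD) in WT and 7.1 ± 1.09 CPM in AS cells (n = 3 each), a log2 fold change of -0.41 (adjusted p = 0.036). The Nog call was lost without AS sample 2 (adjusted p = 0.0803), AS sample 3 (0.125) or WT sample 2 (0.105), and with the chromosome median removed (0.0646). Chrd (chordin) and Nbl1, both binders of BMPs, did not pass (adjusted p = 0.19 and 0.358), with log2 fold changes of 0.26 and 0.10. Nbl1 passed with the chromosome median removed (log2 fold change 0.27, adjusted p = 0.0229).

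Of the SMADs that carry the signal, Smad3 and Smad1 were higher in AS podocytes and Smad9 was lower. Smad4, the SMAD common to both branches, had the highest mean per length of the 6 over all samples, although Smad3 was above it in AS podocytes (26.5 against 24.6 RPKM). Smad4 was at 89.1, 91.2 and 82.8 CPM in WT and 93.9, 91.2 and 88.5 CPM in AS samples. Those groups overlapped (log2 fold change 0.06, adjusted p = 0.465). Smad3, which carries the TGF-β and activin signal, was at 119, 110.1 and 109.8 CPM in WT and 159, 139 and 143 CPM in AS samples, without overlap (log2 fold change 0.38, standard error 0.07, adjusted p = 0.00155). Smad9, a carrier of the BMP signal, was at 10.7, 9.66 and 9.75 CPM in WT and 7.66, 6.69 and 6.78 CPM in AS samples. The highest AS sample was below the lowest WT sample (log2 fold change -0.51, standard error 0.11, adjusted p = 0.00524). Smad1, another carrier of the BMP signal, was at 37.9 ± 1.77 CPM (mean ± SD) in WT and 49.1 ± 2.83 CPM in AS cells (n = 3 each), a log2 fold change of 0.37 (adjusted p = 0.00195). Smad1 lies on chromosome 8, whose median stood at 0.31, and with that removed its log2 fold change was 0.07 (adjusted p = 0.495). Smad2 and Smad5 had log2 fold changes of 0.09 and 0.05 (adjusted p = 0.306 and 0.596). With chromosome medians removed, Smad2 and Smad4, both on chromosome 18, passed at 0.21 and 0.18 (adjusted p = 0.0304 and 0.0381).

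Among the 5 receptor-regulated SMADs, the summed share of Smad2 and Smad3 was slightly larger in AS podocytes, but genes of one branch did not move together. Per length, Smad2 and Smad3 together held 62.5% ± 0.458 of the summed RPKM in WT and 65.0% ± 0.372 in AS cells (mean ± SD, n = 3 each). Smad3 alone held 39.3% ± 0.231 in WT and 43.8% ± 0.530 in AS podocytes, while the share of Smad2 fell from 23.2% ± 0.390 to 21.1% ± 0.243. In the BMP branch, Smad9 held 3.61% ± 0.0347 in WT and 2.17% ± 0.0346 in AS podocytes, and Smad5 held 22.3% ± 0.759 and 19.9% ± 0.745. The share of Smad1 was larger in AS podocytes, at 11.7% ± 0.333 in WT and 13.0% ± 0.889 in AS. The WT and AS samples did not overlap in any of these shares, at a two-sided exact permutation p of 0.10 each, the smallest this design allows. The sum of the 5 genes was 50.3 to 55.0 RPKM in WT and 58.0 to 64.6 RPKM in AS samples.

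Of the inhibitory SMADs and repressors, Smad6 and Bambi were lower at an absolute log2 fold change of at least 0.5. Smad6, which inhibits mainly BMP signalling, was at 76.5, 62.8 and 63.1 CPM in the WT samples and 46, 46.6 and 41.5 CPM in the AS samples. Every AS sample was below every WT sample (log2 fold change -0.59, standard error 0.09, adjusted p = 0.000637). Bambi, a decoy receptor without a kinase domain, was at 1.87, 1.75 and 2.56 CPM in WT and 1.09, 0.817 and 1.44 CPM in AS samples, close together at a low level but not overlapping (log2 fold change -0.88, standard error 0.27, adjusted p = 0.0277). Its call was lost without AS sample 1 (adjusted p = 0.0661), AS sample 2 (0.0846) or WT sample 3 (0.107), and with the chromosome median removed (0.057).

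Ski, a repressor of SMAD-driven transcription and the most abundant of these 8 genes per length, was at 438, 382 and 405 CPM in WT and 351, 310.1 and 325 CPM in AS samples. The groups did not overlap (log2 fold change -0.31, adjusted p = 0.0073), and the call was lost with the median of chromosome 4 removed (adjusted p = 0.18). Smad7, which inhibits both branches, was at 197, 172 and 176 CPM in WT and 174, 133 and 119 CPM in AS samples, and AS sample 1 lay within the WT range. Its log2 fold change was -0.35 (adjusted p = 0.0484). The Smad7 call was lost without any one of the samples except AS sample 1, with an adjusted p between 0.0655 and 0.171, and with the chromosome median removed (0.189). Smurf1, a ubiquitin ligase that marks SMADs and receptors for degradation, was the only gene of this group that was higher in AS podocytes in edgeR's test, at 107 ± 0.665 CPM (mean ± SD) in WT and 137 ± 2.27 CPM in AS cells (n = 3 each). Its log2 fold change was 0.35 (adjusted p = 0.000404), and 0.17 with the median of chromosome 5 removed (adjusted p = 0.0257). Smurf2, a related ligase, and Tgif1, a transcriptional repressor, did not pass (adjusted p = 0.161 and 0.982).

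Of the target genes, Id1, Id3 and Id4 were lower in AS podocytes. The Id genes encode inhibitors of basic helix-loop-helix factors and are standard readouts of BMP signalling. Id3 was at 133, 125 and 137 CPM in the WT samples and 81.9, 71.1 and 78.4 CPM in the AS samples, with the groups far apart, at 0.585 times the WT level (log2 fold change -0.77, standard error 0.07, adjusted p = 2.14e-05). Id4 was at 11.7, 17.2 and 13.3 CPM in WT and 7.55, 6.23 and 5.03 CPM in AS samples, or 0.444 times the WT level (log2 fold change -1.17, standard error 0.18, adjusted p = 0.000823). No sample of Id3 or Id4 overlapped between the lines, and the windows before their starts, shown above, each held 1 kind of motif. Id1, with the highest mean per length of the target genes but below Id3 in 3 of the 6 samples, was at 95.7, 85.3 and 82.3 CPM in WT and 73.9, 46 and 49.9 CPM in AS samples. AS sample 1 was the nearest to the WT samples, yet the groups did not overlap (log2 fold change -0.63, standard error 0.15, adjusted p = 0.00952). Id2 was at 31, 19.2 and 21 CPM in WT and 22.8, 14.7 and 16.8 CPM in AS samples, with overlap and no call (log2 fold change -0.40, adjusted p = 0.143), although it passed under 3 of the alternatives, among them without AS sample 1 (adjusted p = 0.0425) and without a filter on low counts (0.00511). Tgfbi, a matrix protein induced by TGF-β, was below 1 CPM in every sample and did not pass (adjusted p = 0.391).

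Per length, the 4 Id genes summed to 173, 156 and 159 RPKM in the WT samples and 121, 87.0 and 95.0 RPKM in the AS samples. Within that sum, Id1 held 46.5% ± 1.72 of the sum in WT and 47.9% ± 4.25 in AS podocytes, and Id3 held 45.3% ± 2.41 and 43.2% ± 4.63 (SD, n = 3 each). The two-sided exact permutation p was 0.80 and 0.70, where 0.10 is the smallest that this design allows. The groups overlapped in both shares.

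Other genes of the pathways were taken from a list of 101 genes, of which 73 passed the filter. Of these, 42 (57.5%) were called, 19 higher and 23 lower in AS podocytes, against 40.1% of all genes tested. Among 7 tested BMP target genes other than the Id genes, 6 were called, 2 higher and 4 lower. Among 19 TGF-β target genes, 10 were called, 5 higher and 5 lower.

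**Figure D4:**
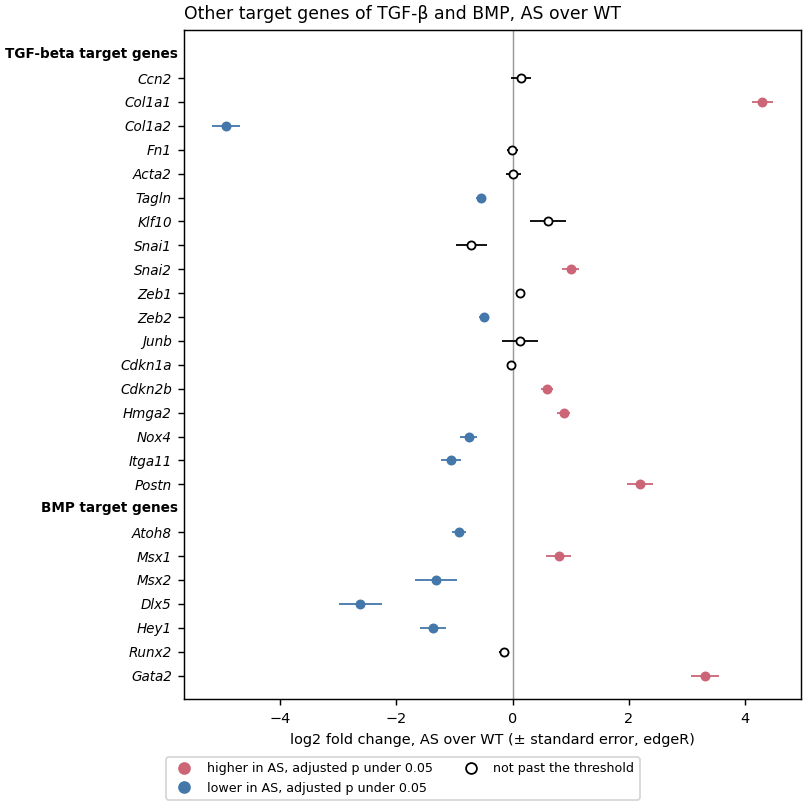
Log2 fold change of AS over WT podocytes for the TGF-β and BMP target genes shown, none of which was among the 51; points are estimates and bars standard errors from edgeR. Col1a1 and Col1a2 lie at opposite ends, at 4.29 and -4.92, and 4 of the 7 BMP targets plotted lie to the left and are called.

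The TGF-β targets with the smallest adjusted p among changes of at least 1 on the log2 scale were the genes of the 2 chains of type I collagen, and they moved apart. Col1a1 was at 19.6, 26.9 and 26.6 CPM in WT and 430.1, 409.6 and 591 CPM in AS samples (log2 fold change 4.29, standard error 0.17, adjusted p = 1.87e-07). Col1a2 was at 37.7, 23.5 and 30.7 CPM in WT and 0.932, 0.739 and 1.33 CPM in AS samples (log2 fold change -4.92, standard error 0.24, adjusted p = 5.14e-07). For both genes the lines were separated by over 10 times in every pair of samples, in opposite directions. Of the BMP targets, the transcription factor gene Gata2 was at 1.04, 1.13 and 2.15 CPM in WT and 13.1, 16 and 13.7 CPM in AS samples (log2 fold change 3.31, adjusted p = 8.56e-06). Dlx5, a homeobox gene, was at 1.04, 1.22 and 1.08 CPM in WT and 0.244, 0.175 and 0.127 CPM in AS samples (log2 fold change -2.62, adjusted p = 0.000432).

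Among the other ligands, latency proteins and regulators, Lrrc32, which holds latent TGF-β on the cell surface, was at 43.4, 39.1 and 49.4 CPM in WT and 160.4, 154 and 189.8 CPM in AS samples (log2 fold change 1.94, adjusted p = 9.87e-07). Fbn2, a fibrillin of the microfibrils that bind latent complexes, was at 27.9, 23.5 and 19 CPM in WT and 1.38, 0.72 and 1.54 CPM in AS samples (log2 fold change -4.27, adjusted p = 1.76e-06). These 2 genes of extracellular latency moved in opposite directions, while Ltbp1 and Ltbp4 rose. The stress-induced ligand Gdf15 was at 888, 775 and 791 CPM in WT and 268, 237 and 211 CPM in AS samples (log2 fold change -1.78, adjusted p = 1.17e-06). Bmp5 stayed below 1 CPM in every sample, with 62 counts in WT and 5 in AS samples (log2 fold change -3.63, adjusted p = 0.00537). Hipk2, a kinase that acts on SMAD-dependent transcription, was at 205, 144 and 164 CPM in WT and 91.3, 63.7 and 83.6 CPM in AS samples (log2 fold change -1.10, adjusted p = 0.000388).

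Sample 1 was the highest of both the WT and the AS samples for 22 of the 51 genes. The same count was not made over all genes, so whether this was particular to the 51 was not tested. Over all genes tested, the deviations of WT sample 1 and AS sample 1 from their genotype means correlated at 0.284. The repressors and targets described here were picked from the 22 after their values were seen. Skil, a repressor induced by TGF-β itself, was at 253, 169 and 174 CPM in the WT samples and 178, 116 and 120.1 CPM in the AS samples. Its sample 1 was 1.48 times the mean of the other samples in WT and 1.51 times in AS podocytes. The difference between the lines did not pass (log2 fold change -0.52, standard error 0.19, adjusted p = 0.0509), and it passed under 7 of the alternatives. Among these were the fits without AS sample 1 (adjusted p = 0.00875) or WT sample 2 (0.0414), and limma-voom (0.0461). DESeq2 size factors (0.0487), total counts only (0.0467) and no filter on low counts (2.11e-06) were others. Without that filter the adjusted p also moved far for other genes, to 1.72e-36 from 3.56e-07 for Bmp4 and to 0.296 from 0.123 for Acvr1. The value of 2.11e-06 is therefore not comparable with that of the main test. Tgif1 was at 66.7, 43.2 and 42.3 CPM in WT and 62.8, 46.2 and 42.6 CPM in AS samples, with sample 1 at 1.56 and 1.41 times the mean of the other samples. For Id2 the same ratios were 1.54 in WT and 1.45 in AS podocytes, for Id1 1.14 and 1.54, and for Smad7 1.13 and 1.38. By contrast, the ratio was 0.991 and 1.03 for Smurf1. The share of mitochondrially encoded counts was lowest in sample 1 of each line, at 0.882% against 1.39% and 1.68% in WT and at 1.30% against 1.65% and 2.02% in AS podocytes, and its part in these ratios was not tested.

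**Figure D5:**
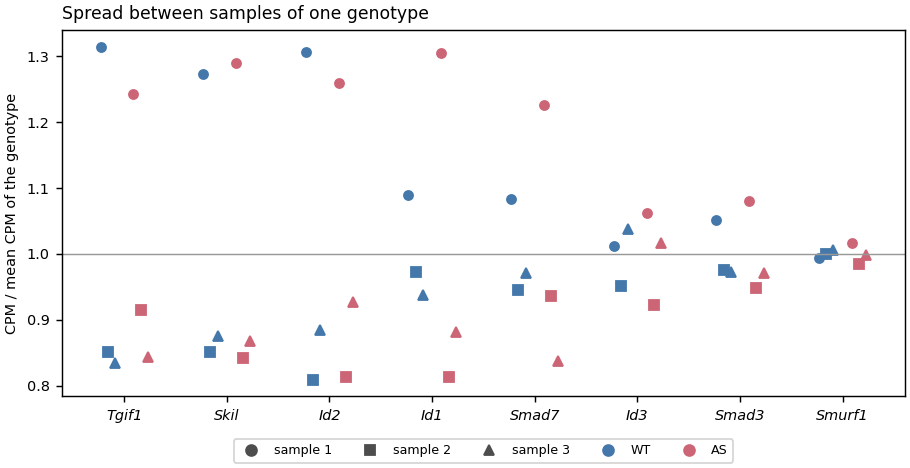
CPM of each sample divided by the mean CPM of its genotype for 8 genes; colours are genotypes and symbols are sample numbers. Sample 1 is the highest of its genotype in both lines for Tgif1, Skil, Id2, Id1, Smad7 and Smad3, and the 6 points of Smurf1 lie close to 1.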

How the data were processed

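RNA-seq libraries of WT podocytes (3 samples) and AS podocytes (3 samples) were used. They are given as whole-number counts of reads per gene, which the authors deposited without normalization in 1 table of all samples, each column named after the description of 1 sample. The submitters' processing notes list FastQC, Trim Galore, STAR, edgeR and the build mm39, and the sources used here do not give the counting tool, annotation release or strand setting. The mRNA libraries were amplified over 15 PCR cycles. GENCODE M21 (GRCm38) gave the symbol, gene type, chromosome and union exon length, and 51880 of 57132 identifiers matched once the version was removed. No coordinates are given other than those of the RefSeq promoter windows.

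edgeR 4.0.16 was run in R 4.3.3. Genes with few reads were removed (filterByExpr, count of at least 10 and total of at least 15), libraries were scaled by TMM, and a two-sided quasi-likelihood test of genotype was made without covariates, with Benjamini-Hochberg adjustment over all 16263 genes. Adjusted p-values of single genes are from this test or its refits, except where limma-voom is named. That of the shares is from Benjamini-Hochberg adjustment over 17 permutation tests. Standard errors were approximated from the log2 fold change and its F statistic. RPKM is CPM per kilobase of union exon, and shares within families were compared by exact permutation tests over samples. Library depth was 45417221 to 54290968 counts, and 3 counts over a group, the limit that a count of 0 allows, correspond to 0.0209 CPM for the WT and 0.0198 CPM for the AS group. These limits cover counting error only. The script was tested on simulated data.

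The 51 genes, the further pathway genes and the marker lists were chosen by role with earlier results of these data known. Values in every sample are given for called genes with an absolute log2 fold change of at least 0.5 and for the gene of each group with the highest mean level. Of the further pathway genes, at most 2 in each group were named in the Results. Those were the genes with the smallest adjusted p among absolute log2 fold changes of at least 1. The genes under Other observations were named outside this rule, after their values were seen. Some genes of these lists are counted but not reported by name here. Alternatives were DESeq2 size factors, total counts, DESeq2 1.42.0, limma-voom (limma 3.58.1, the study's own method), other low-count filters, a replicate block, removal of the median of each chromosome, CPM in place of RPKM, and each sample left out in turn.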

Additional observations from a re-analysis of the deposited data

How the results depend on the processing

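Across the alternatives, between 5120 and 7066 genes and between 21 and 31 of the 50 genes were called, all within 1.5 times of the main counts. The number of lower genes fell from 17 to 11 with chromosome medians removed, and ranged from 11 (without AS sample 2) to 17 with each sample left out. Of 833 values for 60 genes under the alternatives, 760 had the same sign and call as the main test, 35 lost and 18 gained a call, and 20 changed sign, all of them in genes that were not called. The sign changes were Ltbp3 (-0.11) and Acvr2a (0.021) with chromosome medians removed, Acvr2a (0.015) and Tgif1 (0.021) with total counts only, Tgif1 (0.0066) with the replicate block, and the rest with a sample left out. In those fits the log2 fold change ranged from -0.032 to 0.11 for Tgfb2, from -0.019 to 0.086 for Ltbp2, from -0.18 to 0.42 for Bmp7, from -0.018 to 0.10 for Bmpr1a, from -0.066 to 0.034 for Acvr2a, from -0.0046 to 0.11 for Smad5 and from -0.20 to 0.24 for Tgif1. The cause was not tested. With CPM in place of RPKM, the difference in the share of Tgfb3 was -4.73 percentage points (main value -3.23) and that of Smad2 with Smad3 2.01 (main value 2.51). The difference in the Id3 share ranged from -3.54 to 0.578 points with a sample left out.

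With the replicate block, 7066 genes and 31 of the 50 genes were called, 11 higher and 20 lower, and 46 of the further pathway genes against 42. The 4 genes that gained a call were Tgfbr2 (adjusted p = 0.0388), Bmpr2 (0.0248), Skil (6.4e-05) and Id2 (0.00237), and no other call of the 50 changed. The numbers do not pair the samples by any label. Deviations of same-numbered samples correlated at 0.284, 0.160 and 0.0801, and WT sample 3 correlated best with AS sample 2 (0.139). Low levels limit the precision for Grem1, Bmpr1b, Bambi, Bmp7, Acvrl1 and Tgfbi.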

Other observations

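These further genes of the pathways were named after their values were seen. Thbs1, which encodes an activator of latent TGF-β, was at 20690, 16000 and 18140 CPM in the WT samples and 11220, 10040 and 10210 CPM in the AS samples, and every AS sample was lower (log2 fold change -0.80, adjusted p = 0.000371). Pmepa1, a negative regulator that TGF-β induces, was at 177, 177 and 189 CPM in WT and 358, 349 and 351 CPM in AS samples, with every AS sample higher (log2 fold change 0.96, adjusted p = 1.69e-06). Chrdl1, a BMP antagonist of the chordin family, was at 3.9, 1.54 and 1.39 CPM in WT and 17.1, 12.7 and 14.6 CPM in AS samples (log2 fold change 2.69, adjusted p = 0.00023). It was higher in every AS sample, whereas Grem1 and Nog were lower.

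Of the BMP targets, Atoh8 and Hey1 were lower in every AS sample, with log2 fold changes of -0.92 and -1.37 (adjusted p = 0.000271 and 0.00103), and Msx2 at -1.32 (adjusted p = 0.0173), while Msx1 was higher at 0.79 (adjusted p = 0.0156). Of the 19 TGF-β targets, 5 were called higher and 5 lower, so the few named next do not stand for the group. Tagln was lower (log2 fold change -0.54, adjusted p = 0.000848). Ccn2, Fn1 and Acta2 did not pass, with log2 fold changes of 0.15, -0.01 and 0.01 (adjusted p = 0.555, 0.966 and 0.948). Klf10 and Junb, which TGF-β induces rapidly, were highest in sample 1 of both lines, at 1.74 and 1.99 times the mean of the other WT samples and 2.14 and 1.70 times that of the other AS samples.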
